A study of Mus musculus with 20 samples.

Results

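XY gonads of the inbred strains C57BL/6J and 129S1/SvImJ were compared at embryonic day 11.5. The comparison takes the 10 arrays whose sample names hold either strain, 5 of each, out of 20 arrays in the series. The other 10 arrays hold gonads of reciprocal hybrids and enter only 1 alternative fit. Each array measured RNA of 1 pair of gonads, dissected away from the mesonephroi of an embryo with 17 to 21 tail somites, and 200 to 450 ng of that RNA was amplified. Gonad RNA carried Cy5 on every array, with no dye swap. The Cy3 channel held 1 reference pool throughout, made of gonads (4 XY pairs and 3 XX pairs) and whole embryos (4 XY and 2 XX) from a cross of Sox9-ECFP (C57BL/6J) with CD-1, an outbred stock. The labels name no treatment or transgene for the strain samples. The C57BL/6J arrays are named H1, H2, H3, H4 and K2, the 129S1/SvImJ arrays A3, A4, A6, D4 and G3, and values are listed in that order below. The letters may mark litters, which the labels do not state. If so, 4 of the 5 C57BL/6J embryos share a litter, as do A3, A4 and A6 of 129S1/SvImJ.

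The mouse gonad at this stage is a bipotential ridge. In an XY embryo the Y-linked gene Sry switches on Sox9 in the supporting cells, which then become Sertoli cells, while WNT signalling through beta-catenin and the activin antagonist follistatin are hallmarks of the ovary pathway. Primordial germ cells have just settled in the ridge, and the male and female programmes have begun to part without yet having formed a testis or an ovary. C57BL/6J is known for its liability to XY sex reversal when the male pathway is weakened, and the series asks what in its gonad differs from that of 129S1/SvImJ. The values are log2 ratios of gonad Cy5 over reference Cy3, and every difference is C57BL/6J minus 129S1/SvImJ on that scale, followed by ± its standard error (SE) in the limma fit. In these bulk samples fewer cells of a type and less RNA per cell cannot be told apart. Whether sequence differences between the strains lie under the 60-base probes was not tested.

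Between 81.3% and 86.8% of gene probes were well above background in Cy5, and the median net Cy5 signal ran from 137 in K2 to 231 in D4. Across probes an array correlated with those of its own strain at a mean r of 0.78 to 0.86 and with those of the other strain at 0.68 to 0.78. 3 C57BL/6J arrays stood apart. In H1, 88 genes lay 1.5 or more above the median of the 4 other C57BL/6J arrays where those lay within 1 of each other, and 10 of these belonged to a list of hepatocyte and visceral endoderm markers. H4 held 71 such genes, of which 28 were on interferon lists. K2 had 25 genes that far above and 124 that far below. Of these outlying genes 1 in H1, 1 in H4 and 6 in K2 were called between the strains, where 3.69% of all genes were. An outlying array widens the spread within its strain, which by itself makes a call less likely. The defining gonad genes Wt1, Gata4, Lhx9 and Nr5a1 were measured on all arrays, with strain differences of 0.38, 0.76, 0.13 and -0.11 in that order, none past the test (adjusted p = 0.22, 0.38, 0.88 and 0.97).

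**Figure D1:**
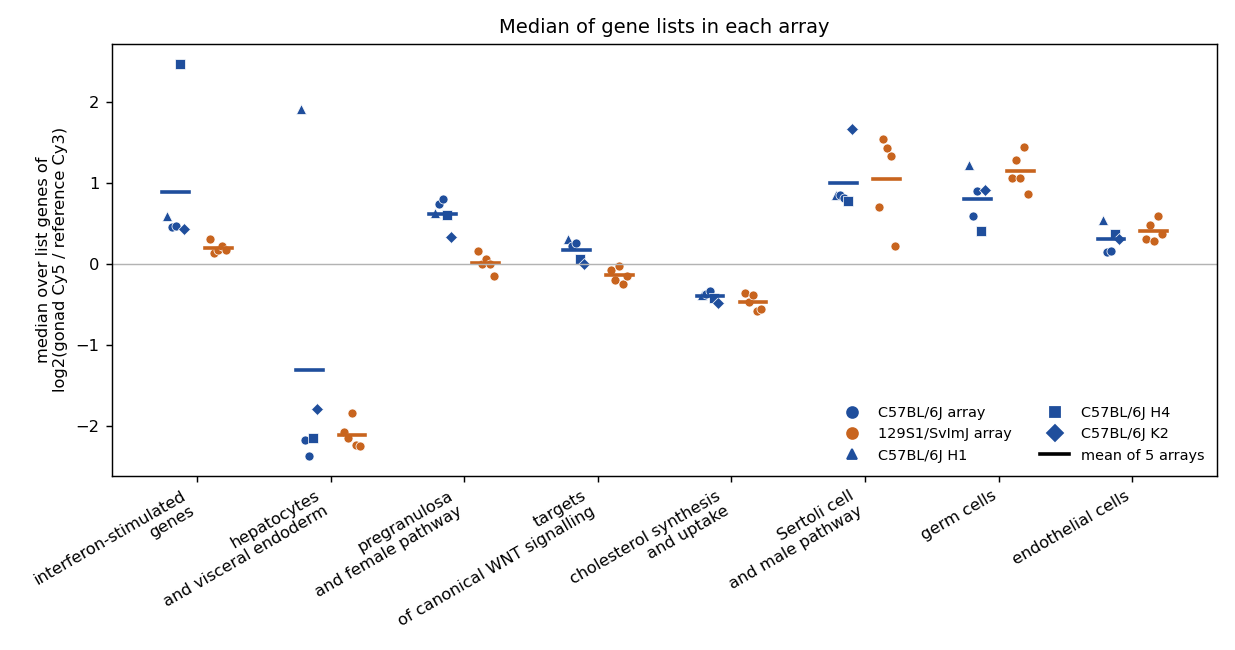
Median log2 ratio of gonad over reference across the tested genes of 8 lists, with 1 point per array and a line at the mean of 5 arrays of a strain. H4 sits at 2.47 for the interferon-stimulated genes and H1 at 1.92 for the hepatocyte and visceral endoderm markers, far from the other C57BL/6J arrays, while the female pathway and WNT target medians of the strains do not overlap.

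Of 34883 probes tested, 1313 (3.76%) were called at an adjusted p under 0.05, with 778 (2.23%) higher in C57BL/6J and 535 (1.53%) lower. With each gene read by its brightest probe, 876 of 23764 genes (3.69%) were called, 533 (2.24%) higher and 343 (1.44%) lower in C57BL/6J. At least a 2-fold difference was reached by 226 of the higher and 175 of the lower genes, and the median size over called genes was 0.93. The strains' arrays did not overlap for 1238 genes, 5.21% of those tested, and 805 of these were called. The median over all genes was 0.014, with 53.5% above 0, so that lists near these values do not stand apart from the rest. The difference had the same sign within each of the 4 slides for 864 of the 876 called genes. The slides hold the same arrays that gave the calls, so this is not separate evidence. Of the 292 called genes with more than 1 tested probe, 195 had all probes on the same side of 0, and in 88 another probe was called in the same direction. Probes that went another way are given beside their gene. With the letter of the sample name as a random block, 480 genes were called, and 50 of 131 calls ended among the genes picked by the naming rule. With normexp correction of the mean signals and loess, 39 of those calls ended, and the genes that lost the call in no leave-one-out fit but in one of these other fits are named where they are described.

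Among pathway and cell type lists with at least 8 tested genes, those of the ovary pathway and of WNT targets had the largest shares called higher in C57BL/6J. The lists were chosen with earlier results of these data known, so this order is a description and not a test. On the list of pregranulosa and female pathway genes, 4 of 18 tested (22.2%, against 2.24% of all genes called higher) were higher in C57BL/6J and none lower, with a median of 0.46. These were Gng13, Fst, Cdkn1b and Lef1. Fst read 0.62, 0.67, 1.30, 1.06 and -0.26 in C57BL/6J and -0.38, -1.34, -1.13, -1.13 and -0.74 in 129S1/SvImJ. Fst encodes follistatin, which binds and blocks activin. Its C57BL/6J arrays all lay above those of 129S1/SvImJ, with a log2 difference of 1.62 ± 0.28 (3.08-fold, adjusted p = 0.0069), which did not pass without H1 and H4 together (adjusted p = 0.056). Gng13 read 3.06, 2.38, 3.41, 2.59 and 3.49 in C57BL/6J and -0.21, -0.54, -0.78, 0.41 and -0.81 in 129S1/SvImJ. This gene codes for a gamma subunit of heterotrimeric G proteins, and its strains did not overlap (difference 3.37 ± 0.28 (10.3-fold, adjusted p = 4.1e-05)). Cdkn1b, an inhibitor of cyclin-dependent kinases, was higher by 0.77 ± 0.12 (1.7-fold, adjusted p = 0.0031) on its brightest probe, while its other probes gave -0.13 to 0.04. Wnt4 and Rspo1, the ovary pathway's ligand and its potentiator, gave 0.62 and 0.58 and did not pass (adjusted p = 0.26 and 0.089), although Rspo1 passed without G3 (adjusted p = 0.037). Foxl2, a later ovary factor, gave 0.0093 (adjusted p = 0.99). Without G3 the list had 7 called genes rather than 4.

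Among 22 tested targets of canonical WNT signalling, 4 were called higher (18.2%) and none lower, and 19 lay above 0 with a median of 0.29. Fst and Lef1 are also on the list above, so the lists are not separate counts. Sp5 read 2.18, 2.31, 2.53, 2.71 and 2.06 in C57BL/6J and 1.11, 1.17, 0.54, 1.18 and 1.28 in 129S1/SvImJ. Sp5 is a zinc finger factor known as a direct target of beta-catenin, and its strains were separated by a difference of 1.31 ± 0.17 (2.47-fold, adjusted p = 0.00096). Rnf43 read 0.57, 0.71, 0.67, 0.89 and 0.73 in C57BL/6J and -0.69, -0.49, 0.11, -0.55 and -0.25 in 129S1/SvImJ. Rnf43 encodes a ubiquitin ligase that removes Frizzled receptors from the cell surface as feedback. All its C57BL/6J values were above those of 129S1/SvImJ (difference 1.09 ± 0.15 (2.12-fold, adjusted p = 0.0014)). Lef1, a factor that binds DNA with beta-catenin, was higher by 0.69 ± 0.16 (1.62-fold, adjusted p = 0.033), and the call ended for Lef1 without any 1 of H1, H2, H3, H4, A3, A4, A6 and D4 (adjusted p = 0.055 to 0.091). Axin2, the common feedback reporter of the pathway, gave 0.86 and did not pass in the main fit (adjusted p = 0.055). It passed without G3 (adjusted p = 0.021) and in 2 of the 9 alternative fits with all strain arrays. Without A3 the list's median was 0.19 instead of 0.29.

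Of 55 WNT ligands, receptors and secreted modulators, 3 were higher and 1 was lower (7.27%, against 3.69% of all genes). Their median was 0.037, close to that of all genes. The receptor gene Fzd6 was higher by 0.78 ± 0.099 (1.72-fold, adjusted p = 0.00089), a call that ended with normexp (adjusted p = 0.17). The ligand genes Wnt10a and Wnt9a were higher by 0.70 ± 0.14 (1.62-fold, adjusted p = 0.017) and 0.78 ± 0.17 (1.72-fold, adjusted p = 0.024). The other probe of Wnt9a gave -0.00037. These calls ended for Wnt10a without H3 (adjusted p = 0.05) and for Wnt9a without any 1 of H1, H2, A3, A4, A6 and D4 (adjusted p = 0.05 to 0.069). With normexp the adjusted p of Wnt10a was 0.34. Sfrp1 read -0.60, -0.66, -0.70, -0.69 and -2.42 in C57BL/6J and 0.47, 0.57, 0.71, 0.28 and 1.26 in 129S1/SvImJ. This gene encodes a secreted antagonist that binds WNT ligands, and on its brightest probe the strains differed by -1.67 ± 0.34 (adjusted p = 0.018), while a second probe gave 0.33. Sequences before the start of the genes were searched for the letters CTTTGAT, bound by TCF and LEF factors, on both strands of the 250 bases in RefSeq's GRCm38.p6. They were found in 3.72% of all 27025 genes with a promoter entry (3.21% of 32851 promoters) and in 1 of the 14 WNT targets with a promoter entry. That gene was Sp5, and 60 bases around the match at chr2:70474793-70474852 on the plus strand are shown because it had the smallest adjusted p of the 4 called targets, with the motif in capitals.
Sp5: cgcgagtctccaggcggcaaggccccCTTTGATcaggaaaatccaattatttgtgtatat

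The list of Sertoli cell and male pathway genes had a median near that of all genes. Of 31 tested genes 1 was called higher (3.23%), none lower, and its median was 0.034. Sry itself read 0.38, 0.85, 0.92, 0.83 and -0.29 in C57BL/6J and 0.40, 0.86, 0.41, 1.20 and 1.07 in 129S1/SvImJ. The strains overlapped, the difference was -0.25 (adjusted p = 0.79), and Sry was well above background on 4 C57BL/6J and 3 129S1/SvImJ arrays. Sox9 read 0.62, 0.53, 0.59, 0.09 and 1.43 in C57BL/6J and -0.87, 0.48, 0.32, 0.47 and -1.69 in 129S1/SvImJ. The strains overlapped for Sox9, with 4 of 5 C57BL/6J arrays above all of 129S1/SvImJ (difference 0.91, adjusted p = 0.38), and the Sertoli cell hormone gene Amh gave -0.31 (adjusted p = 0.73). Array K2 had the highest median of this list in C57BL/6J, 1.67 against 0.78 to 0.86 in the other 4, and G3 the lowest in 129S1/SvImJ, 0.22 against 0.70 to 1.54. Tail somite counts per embryo were not analysed here, and their part in this spread was not tested.

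3 of 18 MAPK genes of the sex determination pathway were called higher in C57BL/6J, a share of 16.7%. Gadd45g, which activates the MAP3K4 branch upstream of Sry, was higher by 0.52 ± 0.12 (1.43-fold, adjusted p = 0.03). Mapk12, which encodes p38 gamma, was higher by 0.57 ± 0.12 (1.49-fold, adjusted p = 0.021) and Mapk8, which encodes the kinase JNK1, by 1.27 ± 0.29 (2.42-fold, adjusted p = 0.032). The other probes of Mapk8 gave -0.21 to -0.098. All 3 calls were near the threshold and ended for Gadd45g without any 1 of H2, H3, K2, A3, A6, D4 and G3 (adjusted p = 0.056 to 0.084), for Mapk12 without any 1 of H2, H3, A4 and A6 (adjusted p = 0.053 to 0.059) and for Mapk8 without any 1 of H1, H2, H3, H4, A4, D4 and G3 (adjusted p = 0.06 to 0.085). Among 24 genes of the bipotential gonad's somatic cells, 3 were higher and none lower (12.5%, against 3.69% of all genes). The list's median was 0.20 (0.13 without H3, 0.12 without A6). The called genes were Gng13, Kctd14 and Emx2, of which Emx2 is a homeobox gene needed for the urogenital ridge. Emx2 read 2.07, 2.82, 2.47, 2.36 and 2.95 in C57BL/6J and 1.11, 1.60, 1.28, 1.19 and 2.28 in 129S1/SvImJ. Its difference was 1.04 ± 0.24 (2.06-fold, adjusted p = 0.034), a second probe gave 0.99, and the call ended for Emx2 without any 1 of H2, H3, H4, K2, A3, A4, A6 and D4 (adjusted p = 0.052 to 0.092). Kctd14 read 6.05, 6.10, 6.04, 5.93 and 5.32 in C57BL/6J and 1.86, 3.43, 2.97, 2.73 and 3.05 in 129S1/SvImJ. Kctd14 carries the tetramerisation domain of potassium channels, and K2 was the lowest C57BL/6J array by a wide margin while still above all of 129S1/SvImJ (difference 3.08 ± 0.26 (8.47-fold, adjusted p = 5.6e-05)).

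The median over interferon-stimulated genes lay higher in each of the 5 C57BL/6J arrays than in any 129S1/SvImJ array, and H4 set most of its size. Interferons act through transcription factor complexes that bind response elements in promoters of antiviral genes. The per-array median over 47 tested genes was 0.59, 0.46, 0.48, 2.47 and 0.43 in C57BL/6J and 0.31, 0.13, 0.17, 0.22 and 0.17 in 129S1/SvImJ. The lowest C57BL/6J median, in K2, was above the highest of 129S1/SvImJ, in A3, and H4 lay far above the rest. The median difference was 0.62 with 42 of 47 genes above 0, but only 2 genes were called (4.26%, against 3.69% of all genes), both higher. Without H4 the median was 0.26, 37 genes lay above 0 and 9 were called. Without H1 and H4 together it was 0.18 with 4 called. Within slides 1, 2 and 3 the median was 0.24, 0.26 and 0.19, and within slide 4, which held H4, it was 2.40. The called share of this list therefore depends on H4, and what set that array apart was not tested. Median log2 ratios of macrophage and other leukocyte markers were 0.37, 0.029, 0.0037, 0.33 and 0.10 in C57BL/6J and 0.36, -0.33, -0.11, 0.026 and -0.27 in 129S1/SvImJ. H1, A3 and H4 had the highest of these, and whether leukocytes bear on the interferon genes was not tested.

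Isg20 read 2.68, 1.36, 1.53, 2.58 and 1.13 in C57BL/6J and 0.31, -0.41, 0.28, 0.20 and 0.19 in 129S1/SvImJ. This gene encodes an RNA exonuclease, and its call held without H4 or any other single array (difference 1.74 ± 0.30 (3.35-fold, adjusted p = 0.0077), second probe 1.30). With normexp correction of the mean signals no gene of the list was called, and the adjusted p of Isg20 was 0.062. Oasl2 read 1.77, 2.23, 1.81, 5.89 and 2.31 in C57BL/6J and -0.995, 0.22, -0.13, -0.14 and -0.60 in 129S1/SvImJ. Oasl2, an oligoadenylate synthetase-like gene, was higher by 3.13 ± 0.69 (8.75-fold, adjusted p = 0.028), and the call ended for Oasl2 without any 1 of H2, A3, A4, A6, D4 and G3 (adjusted p = 0.052 to 0.075) but held without H4. Usp18 read 1.10, 1.28, 1.30, 4.50 and 1.00 in C57BL/6J and -0.15, -0.26, -0.34, -0.088 and -0.092 in 129S1/SvImJ. Usp18 removes ISG15 from proteins and dampens interferon receptors. It did not pass in the main fit (difference 2.02, adjusted p = 0.092) and passed without H4 (1.36, adjusted p = 9e-05). It also passed in 2 of the 9 alternative fits with all strain arrays. Bst2 read 3.23, 3.28, 1.80, 5.15 and 3.55 in C57BL/6J and 1.21, 1.81, 1.85, 1.15 and 1.41 in 129S1/SvImJ. Bst2, which tethers budding virus, gave a difference of 1.92 (adjusted p = 0.051). It passed without H4 and without H3 (adjusted p = 0.0075 to 0.038) and in 3 of those 9 alternative fits. Oas2 also passed without H4 (adjusted p = 0.0086) and in 1 of those 9 alternative fits. Isg15 itself read 0.89, 0.46, 0.23, 4.95 and 0.25 in C57BL/6J and 0.21, 0.095, 0.11, -0.27 and -0.47 in 129S1/SvImJ, where apart from H4 the strains lay next to each other, and did not pass (adjusted p = 0.5). Apobec3, a cytidine deaminase that restricts retroviruses, was the list's lowest value at -0.64 (adjusted p = 0.14).

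**Figure D2:**
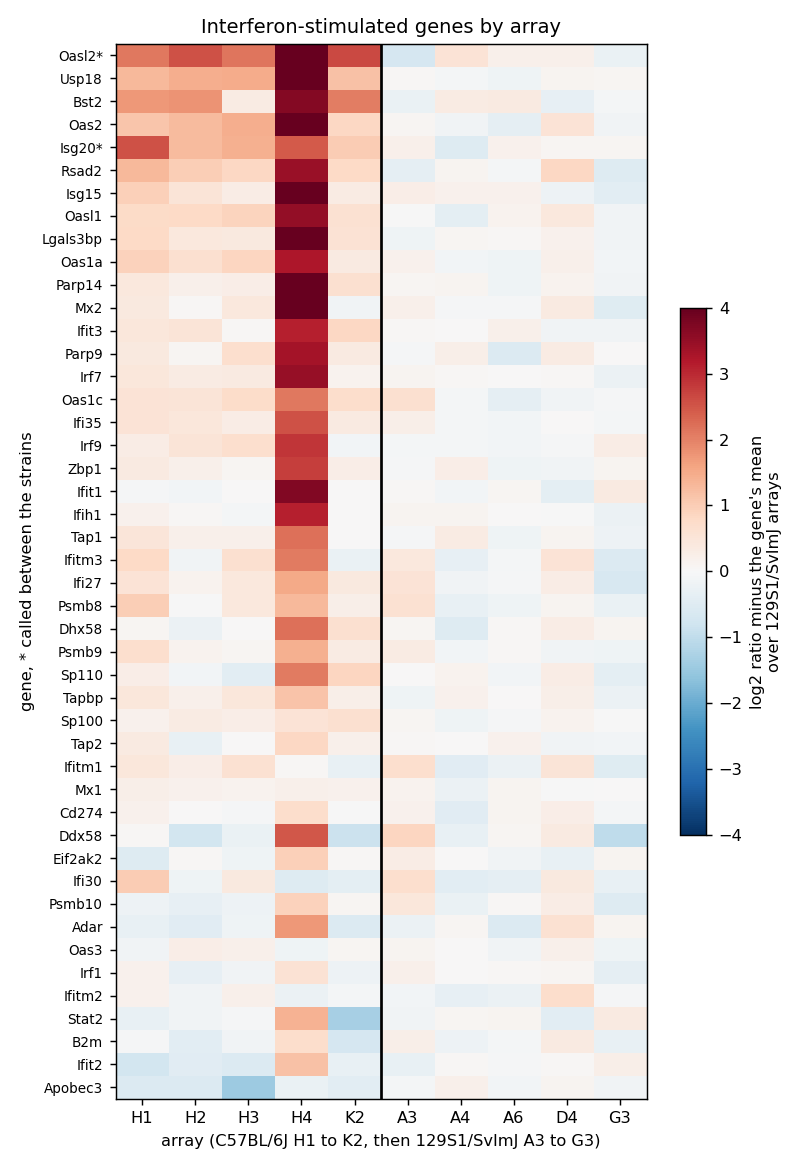
Log2 ratio of 46 of the 47 interferon-stimulated genes in each array, minus the gene's mean over the 129S1/SvImJ arrays (red above, blue below, colours limited at 4 either way), sorted by strain difference, with called genes starred. The column of H4 is red for most genes, and Oasl2, Usp18, Oas2 and Isg20 are red in all 5 C57BL/6J arrays.

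The core of the interferon-stimulated response element, GAAA followed by any 2 bases and again GAAA, was searched on both strands of the 250 bases before the start of genes in RefSeq's GRCm38.p6. It lay in 12 of the 36 list members with a promoter entry (33.3%) against 3.46% of all 27025 genes with an entry (2.98% of 32851 promoters). The median strain difference was 0.82 over the 12 members with the core and 0.53 over the 24 without, and 8 of 12 and 23 of 24 lay above 0. Both medians include H4, without which the median of the whole list fell from 0.62 to 0.26. Whether the members with and without the core differ without H4 was not tested. The windows of 3 members are shown because their products are well-known antiviral effectors, with matches in capitals. Isg15 lies at chr4:156200862-156200921 and Bst2 at chr8:71537568-71537627, both on the minus strand, and Ifit1 at chr19:34640760-34640819 on the plus strand. Overlapping matches counted, Isg15 holds 3 and Ifit1 and Bst2 hold 2 each.
Isg15: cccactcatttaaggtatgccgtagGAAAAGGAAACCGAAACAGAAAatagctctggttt
Bst2: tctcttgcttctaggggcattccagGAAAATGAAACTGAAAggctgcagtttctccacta
Ifit1: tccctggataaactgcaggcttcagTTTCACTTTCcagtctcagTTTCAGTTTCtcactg

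Guanylate-binding proteins are GTPases that attack the vacuoles of intracellular microbes, and their genes are induced by interferon. Of 8 tested, 2 were called (25%, against 3.69% of all genes), both lower in C57BL/6J. Gbp2b read 2.51, 1.73, 3.16, 2.22 and 0.69 in C57BL/6J and 4.97, 4.34, 3.26, 4.71 and 4.54 in 129S1/SvImJ. The strains did not overlap (difference -2.30 ± 0.44 (adjusted p = 0.013)), and the call ended with normexp (adjusted p = 0.0503). Gbp2 read 1.27, 1.52, 1.77, 1.66 and 0.77 in C57BL/6J and 3.43, 2.15, 1.98, 2.89 and 2.71 in 129S1/SvImJ. H4, the array with the high interferon genes, lay within the range of the other C57BL/6J arrays for both. Over all 8 genes it stood apart, with a median of 1.33 against 0.39 to 0.51 in the other C57BL/6J arrays. The list's median difference was -0.29, or -0.71 with 4 called without H4 and -0.060 without H1, and within slides it was -0.95, -0.49, -0.39 and, in slide 4 with H4, 0.53. Gbp2 was lower at -1.23 ± 0.28 (adjusted p = 0.032), and the call ended for Gbp2 without any 1 of H1, H2, K2, A3, D4 and G3 (adjusted p = 0.058 to 0.08). Of 7 immunity-related GTPases, none was called, 6 lay above 0 and the median fell from 0.72 to 0.083 without H4. Irgm2 was then called at 0.88 (adjusted p = 0.0038), and it was called in 1 of the 9 alternative fits with all strain arrays. In the p200 family of interferon-inducible DNA sensors, 1 of 5 was called (20%). Ifi202b read -2.99, -2.10, -3.18, -2.63 and -1.95 in C57BL/6J and 0.83, -0.49, -0.23, 0.11 and 0.21 in 129S1/SvImJ. Ifi202b was well above background on 2 of 5 C57BL/6J arrays and on all of 129S1/SvImJ, and the difference was -2.66 ± 0.29 (adjusted p = 0.00031). Slfn2, which keeps T cells quiescent, was the only called one of 7 Schlafen genes (14.3%), at 0.86 ± 0.16 (1.81-fold, adjusted p = 0.013). That call ended with normexp and with the letter block (adjusted p = 0.12 and 0.069). Of 28 MHC genes H2-Bl alone was called (3.57%), at -0.57 ± 0.14 (adjusted p = 0.048), with its other probes at -4.05 to -3.68. The call ended for H2-Bl without any 1 of H1, H2, H3, K2, A3, A4, A6 and D4 (adjusted p = 0.057 to 0.12).

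TRIM proteins are ubiquitin ligases, several of which restrict viruses, and 3 of 50 tested genes (6%) were called, all higher in C57BL/6J. Trim12a read 2.88, 2.41, 2.92, 3.86 and 2.79 in C57BL/6J and -2.70, -3.15, -2.28, -2.74 and -3.14 in 129S1/SvImJ. The difference was 5.77 ± 0.26 (54.7-fold, adjusted p = 4.7e-07), with 3 of 5 129S1/SvImJ arrays well above background and a second probe at 3.02. Its family neighbour Trim6 was higher by 0.91 ± 0.11 (1.88-fold, adjusted p = 0.00067). Trim16 was higher by 0.62 ± 0.15 (1.54-fold, adjusted p = 0.047) on its brightest probe and by 1.04 to 3.44 on 2 others, and the brightest probe's call ended for Trim16 without any 1 of H1, H2, H4, K2, A3, A4, A6 and D4 (adjusted p = 0.053 to 0.11).

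Of 19 tested germ cell markers 4 lay above 0, the median was -0.21, and 1 gene was called, Pou5f1 (5.26%, against 3.69% of all genes). Without G3, 4 genes were called lower, and the median was -0.13 without K2 and -0.12 without D4. Pou5f1 read 2.22, 1.95, 1.54, 1.97 and 2.15 in C57BL/6J and 3.20, 2.95, 3.30, 2.82 and 2.91 in 129S1/SvImJ. Pou5f1 encodes OCT4, the pluripotency factor that primordial germ cells retain. All C57BL/6J arrays lay below those of 129S1/SvImJ (difference -1.07 ± 0.15 (adjusted p = 0.0016)). Zfp42 read 2.51, 1.55, 2.17, 1.23 and 2.00 in C57BL/6J and 4.33, 4.28, 3.63, 4.91 and 3.83 in 129S1/SvImJ. Zfp42, a zinc finger marker of pluripotent cells, was lower at -2.30 ± 0.28 (adjusted p = 0.00066), and at -4.24 on its second probe. It is not on the germ cell list but on one of pluripotency and early germ line genes. There 2 of 20 were called (10%), both lower, with a median of -0.094. That list's array medians overlapped, at 0.42 to 1.18 in C57BL/6J and 0.76 to 1.03 in 129S1/SvImJ. The germ cell list's array medians ranged from 0.41 (H4) to 1.23 (H1) in C57BL/6J and from 0.87 to 1.44 in 129S1/SvImJ, so the strains overlapped. None of 27 genes of transposon silencing and piRNA was called. The call of Pou5f1 ended with normexp and with all 20 arrays in the fit (adjusted p = 0.32 and 0.065), and that of Zfp42 held in all fits run (highest adjusted p = 0.031).

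Meiotic genes had calls in both directions. Of 25 tested genes of cohesin, the synaptonemal complex and meiosis, 2 were higher and 2 lower in C57BL/6J (16%), and the list's median was -0.068. Rec8 read 2.26, 1.96, 2.44, 2.70 and 1.40 in C57BL/6J and -0.69, -0.76, -0.81, -0.41 and -0.26 in 129S1/SvImJ. Rec8 is the kleisin subunit of meiotic cohesin, which holds sister chromatids together. Its strains were far apart (difference 2.74 ± 0.22 (6.67-fold, adjusted p = 3.9e-05); second probe 1.22). Dmc1 read 1.43, 1.40, 1.40, 0.72 and 1.31 in C57BL/6J and -0.076, 0.25, 0.43, -0.021 and 0.50 in 129S1/SvImJ. This gene encodes the recombinase that pairs homologous strands. It was higher by 1.03 ± 0.17 (2.05-fold, adjusted p = 0.0049), with H4 the lowest C57BL/6J array. Stag3 read 1.17, 0.75, 0.75, 0.27 and 0.65 in C57BL/6J and 1.57, 1.54, 1.46, 1.58 and 1.22 in 129S1/SvImJ. The partner subunit of REC8 in meiotic cohesin went the other way, at -0.75 ± 0.15 (adjusted p = 0.019), and the call ended for Stag3 without either A4 or D4 (adjusted p = 0.051 to 0.053). Sycp3 read 1.41, 0.76, 1.26, 0.90 and 0.77 in C57BL/6J and 3.18, 2.64, 2.71, 2.59 and 1.94 in 129S1/SvImJ. Sycp3, a part of the chromosome axis, was lower (adjusted p = 0.0014), but it was not well above background on any C57BL/6J array and was so on 4 of 5 129S1/SvImJ arrays, so no fold is given. Its call ended with normexp and in the authors' table of log2 ratios (adjusted p = 0.15 and 0.87).

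**Figure D3:**
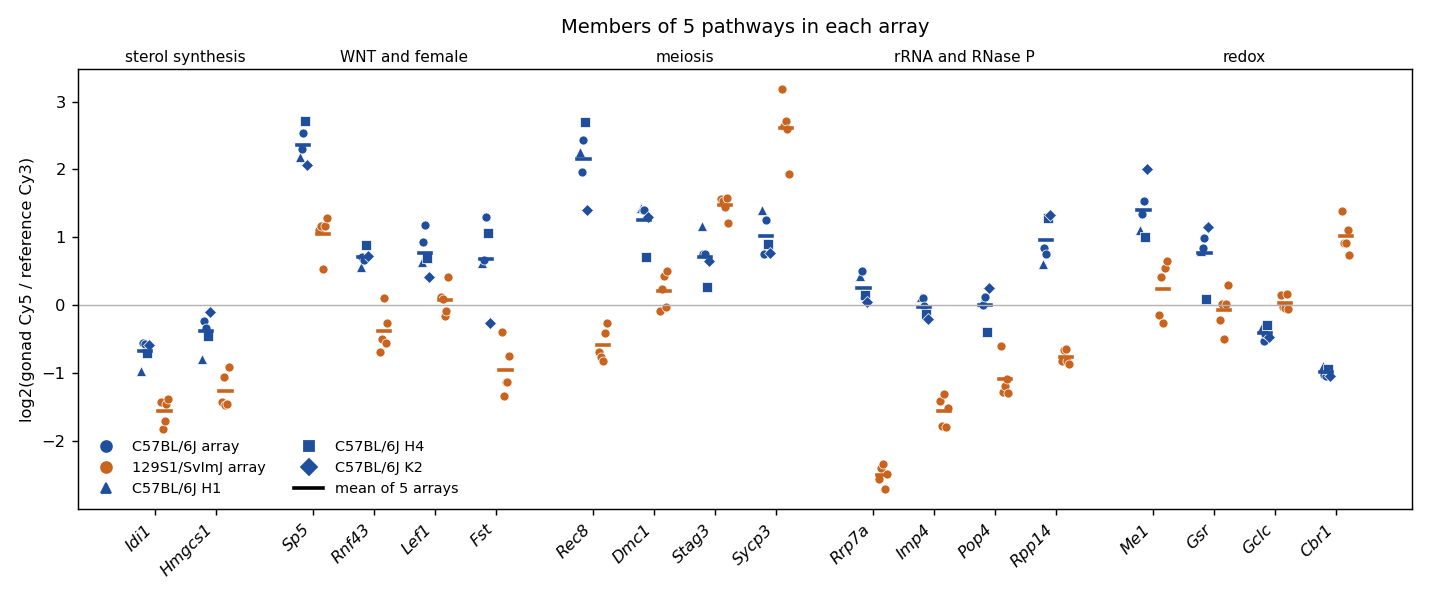
Log2 ratio of gonad over reference in each array for 18 genes of 5 pathways, with 1 point per array and a line at the mean of 5. Sp5, Rnf43, Idi1, Rec8, Dmc1 and the 4 genes of rRNA processing and RNase P lie higher in C57BL/6J and Stag3, Sycp3, Gclc and Cbr1 lower, with no overlap between strains for any of these.

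Cholesterol is made through the mevalonate pathway, which also feeds steroid synthesis in the gonad. Of 31 genes of cholesterol synthesis and uptake 5 were called higher in C57BL/6J (16.1%), none lower, and 24 lay above 0 with a median of 0.19. Without any 1 of H2, H3, A6 and D4, 3 were called. Hmgcs1 read -0.79, -0.22, -0.33, -0.45 and -0.098 in C57BL/6J and -1.43, -1.06, -1.47, -1.45 and -0.91 in 129S1/SvImJ. Hmgcs1 makes HMG-CoA, the substrate of the rate-limiting step. Its C57BL/6J values all exceeded those of 129S1/SvImJ (difference 0.88 ± 0.16 (1.85-fold, adjusted p = 0.0093); other probes 0.16 to 1.74). Idi1 read -0.97, -0.55, -0.57, -0.69 and -0.58 in C57BL/6J and -1.42, -1.82, -1.70, -1.45 and -1.37 in 129S1/SvImJ. Idi1 interconverts the isoprenoid building blocks, and its strains did not overlap (difference 0.88 ± 0.12 (1.84-fold, adjusted p = 0.0018)). Sc5d, which acts on the sterol ring, was higher by 0.59 ± 0.10 (1.5-fold, adjusted p = 0.0077), with its other probe at -0.47, and did not pass without H1 and H4 together (adjusted p = 0.0515). Lpin1, a phosphatidate phosphatase that also tunes SREBP activity, rose by 0.44 ± 0.097 (1.36-fold, adjusted p = 0.027), and by 0.66 to 0.92 on 3 other probes. The call ended for Lpin1 without any 1 of H1, H2, H3, A4, A6 and D4 (adjusted p = 0.051 to 0.079). The array medians of the list overlapped between strains, at -0.47 to -0.33 in C57BL/6J and -0.57 to -0.36 in 129S1/SvImJ.

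The letters TCACNCCAC of the sterol regulatory element lay in the 250 bases before the start in 1.22% of genes with an entry (1.05% of promoters) and in 1 of the 22 cholesterol genes with an entry. That member was Hmgcs1, shown from chr13:119690189-119690248 (GRCm38.p6, plus strand, RefSeq) because it is both called and an early enzyme of the route, with the match in capitals.
Hmgcs1: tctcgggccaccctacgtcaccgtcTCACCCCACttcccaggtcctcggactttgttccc

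Steroid genes gave no common direction. Of 24 tested, Akr1c18 was higher and Hsd3b1 and Star lower in C57BL/6J (12.5% called), and the median was 0.0083. Hsd3b1 read 1.29, 0.73, 1.05, 1.11 and 1.05 in C57BL/6J and 2.57, 1.69, 2.48, 2.77 and 1.98 in 129S1/SvImJ. Hsd3b1 converts pregnenolone to progesterone, and the strains differed by -1.25 ± 0.20 (adjusted p = 0.0042) without overlap. With normexp its adjusted p was 0.073. Star, which carries cholesterol into mitochondria, was lower at -0.99 ± 0.22 (adjusted p = 0.027), with its other probe at -0.16. Akr1c18, which inactivates progesterone, was higher by 1.79 ± 0.39 (3.46-fold, adjusted p = 0.025). The calls ended for Star without any 1 of H1, H3, K2 and G3 (adjusted p = 0.058 to 0.074) and for Akr1c18 without any 1 of H1, H2, H3, A4, A6 and D4 (adjusted p = 0.052 to 0.07). With normexp the adjusted p of Star was 0.46. Hsd3b1 and Star are also 2 of the 17 steroidogenic and adrenal markers, the only ones called there (11.8%). Of 11 interstitial progenitor markers none was called.

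Of 36 NRF2 targets and genes of glutathione metabolism, 2 were higher and 2 lower (11.1%), with a median of 0.021. Cbr1 read -0.90, -1.02, -1.04, -0.93 and -1.04 in C57BL/6J and 1.39, 0.93, 0.92, 1.11 and 0.75 in 129S1/SvImJ. Cbr1 reduces carbonyls with NADPH. All C57BL/6J arrays lay below the reference and all 129S1/SvImJ arrays above it, a difference of -2.003 ± 0.12 (adjusted p = 4.5e-06). Me1 read 1.11, 1.35, 1.54, 1.00 and 2.00 in C57BL/6J and -0.14, 0.42, -0.25, 0.55 and 0.66 in 129S1/SvImJ. Me1, the cytosolic malic enzyme, supplies NADPH and was higher by 1.15 ± 0.23 (2.23-fold, adjusted p = 0.017) (second probe 1.43). Gsr, which regenerates glutathione, was higher by 0.85 ± 0.21 (1.8-fold, adjusted p = 0.044) (other probes 0.62 to 1.09), and Gclc, the rate-limiting subunit of glutathione synthesis, was lower at -0.44 ± 0.093 (adjusted p = 0.022). These calls ended for Gsr without any 1 of H1, H2, H3, K2, A3, A4, A6 and D4 (adjusted p = 0.08 to 0.11) and for Gclc without any 1 of H2, H3, A3 and D4 (adjusted p = 0.052 to 0.069), and Gsr was the only called gene named here whose sign was not the same within all 4 slides (0.99, 0.82, 1.65 and -0.20). Gstm6 and Gsto1 were the 2 called of 24 glutathione transferases (8.33%), higher by 1.40 and 0.65. The calls ended for Gstm6 without either H1 or A3 (adjusted p = 0.052) and for Gsto1 without any 1 of H1, H2, H3, H4, A4, A6 and G3 (adjusted p = 0.069 to 0.1). Glo1, which detoxifies methylglyoxal and is known to be duplicated in some inbred strains, read -0.097, -0.11, -0.036, -0.47 and -0.19 in C57BL/6J and 2.10, 1.42, 0.95, 1.46 and 1.07 in 129S1/SvImJ. It was lower in C57BL/6J on every array, by -1.58 ± 0.20 (adjusted p = 0.0008).

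Cox7c read -1.75, -1.72, -1.98, -1.49 and -1.29 in C57BL/6J and 1.79, 1.33, 1.68, 1.08 and 0.82 in 129S1/SvImJ. Cox7c encodes a small subunit of cytochrome c oxidase, and its only tested probe put the strains apart by -2.98 ± 0.20 (adjusted p = 8.5e-06). Ndufa11 read -0.71, -1.05, -0.94, -0.96 and -1.29 in C57BL/6J and 1.03, -0.05, 0.54, 0.65 and -0.39 in 129S1/SvImJ. For Ndufa11, of complex I, the difference was -1.35 ± 0.24 (adjusted p = 0.009), with a second probe at -1.26. With Sdhb and Cox6b2 higher by 0.54 and 0.80, 4 of 91 oxidative phosphorylation genes were called (4.4%), and the median was -0.067. The calls ended for Sdhb without any 1 of H1, H2, H3, K2, A4, D4 and G3 (adjusted p = 0.052 to 0.069) and for Cox6b2 without any 1 of H1, H2, H3, H4, A4, A6 and G3 (adjusted p = 0.069 to 0.092). Nnt read -0.38, 0.015, 0.018, -0.33 and -0.32 in C57BL/6J and 0.41, 0.33, 0.50, 0.42 and 0.95 in 129S1/SvImJ. Nnt couples the proton gradient to NADPH, and C57BL/6J is known to carry a deletion within it. It was lower at -0.72 ± 0.14 (adjusted p = 0.016), a call that ended without H1 and H4 together (adjusted p = 0.11), and its other probes gave -0.42 to -0.037. Where the probes lie relative to that deletion was not analysed here.

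Ribosome production held 6 called genes of 58 (10.3%), all higher in C57BL/6J, over a list median of -0.037. Rrp7a read 0.43, 0.50, 0.13, 0.15 and 0.058 in C57BL/6J and -2.55, -2.39, -2.33, -2.70 and -2.48 in 129S1/SvImJ. Rrp7a acts in processing of the small subunit's rRNA. Its strains were widely separated (difference 2.74 ± 0.12 (6.7-fold, adjusted p = 4.5e-07)), but its second probe gave 0.033. Imp4 read 0.13, 0.10, -0.0086, -0.13 and -0.19 in C57BL/6J and -1.40, -1.78, -1.30, -1.79 and -1.51 in 129S1/SvImJ. Imp4, of the U3 snoRNP, was higher by 1.53 ± 0.12 (2.9-fold, adjusted p = 3.9e-05), and the call ended with normexp (adjusted p = 0.052). The other 4 belong to RNase P and RNase MRP, which trim tRNA and rRNA precursors. Rpp14 read 0.61, 0.84, 0.76, 1.28 and 1.32 in C57BL/6J and -0.82, -0.66, -0.64, -0.82 and -0.86 in 129S1/SvImJ. Rpp14 was higher by 1.72 ± 0.15 (3.3-fold, adjusted p = 5.8e-05). Pop4 read 0.044, 0.00017, 0.13, -0.39 and 0.26 in C57BL/6J and -0.60, -1.28, -1.18, -1.08 and -1.28 in 129S1/SvImJ. Pop4 was higher by 1.09 ± 0.16 (2.13-fold, adjusted p = 0.0024), with its second probe at 2.55. Pop1 and Rpp25 were higher by 0.46 ± 0.11 (1.38-fold, adjusted p = 0.034) and 0.75 ± 0.18 (1.68-fold, adjusted p = 0.047), with other probes of Pop1 at 0.0046 to 0.90. Their calls ended for Pop1 without any 1 of H1, H2, H4, K2, A3, A4, A6, D4 and G3 (adjusted p = 0.051 to 0.087) and for Rpp25 without any 1 of H1, H2, H3, H4, A3, A4, A6 and G3 (adjusted p = 0.068 to 0.12). Once arrays were scaled, Rpp25 had an adjusted p of 0.34. Cytosolic ribosomal proteins (2 of 94 called, 2.13%, median -0.099) and mitochondrial ones (2 of 78, 2.56%, median -0.020) had medians below 0. Among 37 aminoacyl-tRNA synthetases, Hars and Wars2 were lower at -1.11 ± 0.13 (adjusted p = 0.00051) and -0.99 ± 0.17 (adjusted p = 0.0078). The other probe of Hars gave 0.05.

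Histone genes were called in 5 of 46 cases (10.9%), 4 higher and 1 lower, with a median of -0.025. H4c9 read -0.062, -0.005, -0.11, -0.049 and -0.0094 in C57BL/6J and -1.70, -1.92, -1.70, -2.19 and -2.31 in 129S1/SvImJ. This H4 gene was higher by 1.92 ± 0.13 (3.78-fold, adjusted p = 8.6e-06). H2bc4 and H2bc21 were higher by 1.15 ± 0.12 (2.22-fold, adjusted p = 0.00026) and 0.84 ± 0.12 (1.79-fold, adjusted p = 0.0016), with other probes of H2bc4 at 0.42. H2ap read 4.50, 5.12, 5.82, 5.08 and 4.93 in C57BL/6J and 2.49, 2.99, 1.81, 4.32 and 2.25 in 129S1/SvImJ. H2ap is an H2A-like gene, and the difference was 2.32 ± 0.42 (4.98-fold, adjusted p = 0.0089). H2aw, another H2A gene, was lower at -1.69 ± 0.24 (adjusted p = 0.0018), while its other probes gave -0.64 to 0.058. Core histone genes are near-identical copies, so the signal of 1 copy on the probe of another cannot be told apart here. Among 71 DNA repair genes 4 were higher and none lower (5.63%). The checkpoint kinase genes Atm and Chek2 were higher by 1.07 ± 0.16 (2.1-fold, adjusted p = 0.003) and 0.90 ± 0.16 (1.87-fold, adjusted p = 0.0089). Wrn, a helicase, and Fancc, of the Fanconi anaemia complex, were higher by 0.90 ± 0.21 (1.86-fold, adjusted p = 0.038) and 0.43 ± 0.10 (1.34-fold, adjusted p = 0.04), and the calls ended for Wrn without any 1 of H1, H2, H3, H4, K2, A3, A4 and A6 (adjusted p = 0.066 to 0.096) and for Fancc without any 1 of H1, H2, H3, K2, A3, A4, A6, D4 and G3 (adjusted p = 0.054 to 0.11). None of the 4 repair genes passed with normexp correction of the mean signals.

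Receptor tyrosine phosphatases had 4 called genes of 20 (20%), 3 of them higher. Ptprg read 1.32, 1.61, 1.57, 1.26 and 1.71 in C57BL/6J and -3.60, -3.67, -3.14, -3.89 and -3.35 in 129S1/SvImJ. Ptprg was above the reference in every C57BL/6J array and far below it in every 129S1/SvImJ array, with a difference of 5.02 ± 0.15 (32.5-fold, adjusted p = 3.5e-08), while its second probe gave 0.81. Ptpro read 0.77, -0.014, 0.39, -0.083 and 1.08 in C57BL/6J and -1.40, -1.03, -1.24, -0.94 and -2.45 in 129S1/SvImJ. Ptpro is known from podocytes and neurons, and was higher by 1.84 ± 0.31 (3.58-fold, adjusted p = 0.0057) (second probe 0.54). Ptprv was lower at -0.77 ± 0.13 (adjusted p = 0.007) (second probe -1.64) and was not called once arrays were scaled (adjusted p = 0.091). Ptprc, which encodes the leukocyte antigen CD45, was higher by 0.76 ± 0.18 (1.69-fold, adjusted p = 0.036), and the call ended for Ptprc without any 1 of H1, H2, H4, K2, A3, A4, A6 and D4 (adjusted p = 0.056 to 0.094). Ptprc and Ctss, a protease of antigen-presenting cells at 1.18 ± 0.21 (2.26-fold, adjusted p = 0.0088), were the 2 called of 20 leukocyte markers (10%). The median of those markers was 0.096 (-0.0043 without H1). The call of Ctss ended without H1 and H4 together (adjusted p = 0.07).

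Protocadherins are adhesion proteins of the cadherin superfamily. Pcdh9 read -2.42, -1.89, -1.72, -1.98 and -2.51 in C57BL/6J and 0.47, -0.30, -0.40, -0.37 and 0.67 in 129S1/SvImJ. Pcdh9, a protocadherin of the delta group, was lower at -2.12 ± 0.25 (adjusted p = 0.00047), with other probes at -1.81 to -0.06. Pcdh17 read -0.12, -0.15, -0.32, 0.24 and -0.017 in C57BL/6J and -1.48, -0.95, -0.85, -1.34 and -1.42 in 129S1/SvImJ. Pcdh17 was higher by 1.13 ± 0.15 (2.19-fold, adjusted p = 0.0014), with other probes at -0.38 to 0.50. With Pcdhb22, Pcdhb6 and Pcdhb21 of the beta cluster lower at -0.60, -0.52 and -0.65, 5 of 37 protocadherins were called (13.5%) and 11 lay above 0. The beta cluster calls ended for Pcdhb22 without any 1 of H1, H2, H3, A3, A4 and A6 (adjusted p = 0.05 to 0.071), for Pcdhb6 without any 1 of H1, H2, H3, H4, K2, A3, A4, D4 and G3 (adjusted p = 0.056 to 0.1) and for Pcdhb21 without any 1 of H2, H3, H4, K2, A3, A4, A6, D4 and G3 (adjusted p = 0.051 to 0.11). Of 41 laminins and integrins, 3 were higher and 1 lower (9.76%, against 3.69% of all genes). Itgb3 read 0.46, 0.69, 0.31, 1.03 and 0.69 in C57BL/6J and -1.51, -1.21, -1.36, -0.49 and -1.10 in 129S1/SvImJ. The integrin beta 3 gene was higher by 1.77 ± 0.20 (3.41-fold, adjusted p = 0.00034), but its second probe gave 0.0042. Lama5, a laminin chain of basement membranes, was higher by 0.77 ± 0.13 (1.71-fold, adjusted p = 0.0053). Itga6 and Itga4 gave 0.71 and -0.85, and the calls ended for Itga6 without any 1 of H2, H3, A4, A6 and D4 (adjusted p = 0.056 to 0.069) and for Itga4 without any 1 of H1, H3, K2, A3, A6 and D4 (adjusted p = 0.056 to 0.074).

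Zinc finger genes named Zfp were called in 23 of 330 cases (6.97%), 11 higher and 12 lower in C57BL/6J, with a median of -0.0032. Zfp69 read -0.37, -0.62, -0.62, -0.63 and -0.60 in C57BL/6J and 0.95, 0.96, 0.82, 1.04 and 0.87 in 129S1/SvImJ. Zfp69 carries a KRAB domain, which recruits a corepressor, and was lower on every C57BL/6J array (difference -1.50 ± 0.091 (adjusted p = 4.5e-06)). Zfp429 read -0.16, 0.20, -0.21, 0.33 and -0.068 in C57BL/6J and -1.66, -1.67, -1.71, -1.52 and -1.32 in 129S1/SvImJ. Zfp429 was higher by 1.59 ± 0.13 (3.02-fold, adjusted p = 4.1e-05). Zfp704 and Zfp975 were lower at -1.84 ± 0.26 (adjusted p = 0.0019) and -1.35 ± 0.19 (adjusted p = 0.002). Zfp330 and Zfp874a were higher by 1.09 ± 0.12 (2.13-fold, adjusted p = 0.00031) and 0.76 ± 0.12 (1.69-fold, adjusted p = 0.004). The called genes of the family thus lay on both sides of 0.

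Of 356 solute carriers 9 were higher and 4 lower (3.65%, near the 3.69% of all genes), and 8 in all were called without H2. Slc7a2 read 3.16, 3.26, 4.01, 3.13 and 2.62 in C57BL/6J and -0.55, -0.33, -0.33, 0.19 and -0.25 in 129S1/SvImJ. Slc7a2 imports cationic amino acids. It was well above background on 2 of 5 129S1/SvImJ arrays and higher in C57BL/6J by 3.49 ± 0.23 (11.2-fold, adjusted p = 7.8e-06). Slc1a5 read -0.072, -0.52, -0.29, -0.32 and -0.66 in C57BL/6J and -1.98, -2.07, -1.97, -1.72 and -2.21 in 129S1/SvImJ. Slc1a5 carries glutamine, and its strains did not overlap (difference 1.62 ± 0.13 (3.06-fold, adjusted p = 4.1e-05)). Slc7a8, a carrier of large neutral amino acids, was higher by 1.45 ± 0.20 (2.73-fold, adjusted p = 0.0014). The glutamate carrier Slc1a3 was lower at -1.19 ± 0.18 (adjusted p = 0.0029) (other probes -1.42 to -1.26), as was the fatty acid carrier Slc27a6 by -1.34 ± 0.16 (adjusted p = 0.00057). Among 52 fatty acid elongases, desaturases and acyl-CoA enzymes, 3 were called higher and 1 lower (7.69%). Acad9, Acadl and Acsbg3 were higher by 0.94 ± 0.12 (1.92-fold, adjusted p = 0.00099), 1.14 ± 0.23 (2.2-fold, adjusted p = 0.016) and 0.69 ± 0.11 (1.61-fold, adjusted p = 0.004). Acad10 was lower at -0.84 ± 0.16 (adjusted p = 0.011). The calls ended for Acadl with the letter block, for Acsbg3 with all 20 arrays and for Acad10 with normexp (adjusted p = 0.058, 0.062 and 0.12). Of 48 serpins, Serpini1, a neuronal protease inhibitor, was lower at -1.82 ± 0.26 (adjusted p = 0.0021), and 3 others were called (8.33% in all).

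Lists of markers of neighbouring cell types had few calls. As shares these reached 11.1% for muscle and 17.6% for mesonephric markers, against 3.69% of all genes. In lists this short, having no call does not show equal expression. The muscle genes Myl1 and Tnni1 were higher, 2 of 18 muscle markers. Myl1 read -0.42, -0.47, -0.72, -0.56 and -0.20 in C57BL/6J and -2.47, -2.94, -2.68, -2.88 and -3.48 in 129S1/SvImJ. Myl1, a light chain of fast muscle myosin, differed by 2.42 ± 0.18 (5.33-fold, adjusted p = 1.5e-05) (other probes 2.27), and Tnni1 by 0.95 ± 0.21 (1.94-fold, adjusted p = 0.029), with its call ended for Tnni1 without any 1 of H1, H2, H3, K2, A4, A6, D4 and G3 (adjusted p = 0.058 to 0.08). The 18 muscle markers had a median of -0.00023. Of 17 mesonephric tubule and duct markers, Lhx1 was lower at -0.61 ± 0.12 (adjusted p = 0.018) and Emx2 and Krt18 higher, the last by 0.82 ± 0.20 (1.76-fold, adjusted p = 0.044). The calls ended for Lhx1 without any 1 of H2, H3 and A4 (adjusted p = 0.05 to 0.055) and for Krt18 without any 1 of H1, H2, H3, H4, A3, A4, D4 and G3 (adjusted p = 0.057 to 0.1). Endothelial markers had no call among 20, with 4 above 0 and a median of -0.14 (-0.069 without H2, -0.089 without H3). Erythroid (16), interstitial (11), neural (19) and trophoblast (9) markers had none either. All 14 hepatocyte and visceral endoderm markers lay above 0 with a median of 0.83 and no call, and without H1 the median was -0.019 with 6 above 0 and 1 called. Apoe, a lipoprotein gene also made by many other cells, gave 1.13 (adjusted p = 0.061) and passed without H1 (adjusted p = 0.04). It also passed in 2 of the 9 alternative fits with all strain arrays.

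At the 3.69% called among all genes, few calls would fall in groups of the sizes below. Several groups had no called gene in limma at an adjusted p under 0.05. These were the proteasome (49 genes), chaperones (81), cytochromes P450 (65), Hox genes (37), kinesins (37), translation initiation factors (53), DEAD box helicases (51), nuclear pore genes (55), imprinted genes (53), FGF signalling (37), the retinoic acid pathway (21), IGF and insulin signalling (38) and immediate early and heat shock genes (27). Their medians lay between -0.063 and 0.033. Of 810 olfactory receptors 4 were called (0.494%).

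Genes called next to each other were grouped into blocks, defined as at least 4 called genes on a chromosome with at most 3 tested genes between neighbours that were not called. Order came from the GRCm38.p6 gene table. 6 blocks held 31 of the 672 called genes with a place in it (4.61%), on chromosomes 3, 4, 6, 13, 14 and 18. The next tested gene was also called for 53 of the 672 (7.89%, against 3.69% of all genes called), 40 times in the same direction. Leaving out 1 array left 3 to 9 blocks.

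The block on chromosome 14 was the largest, with 7 called genes. Its first 4 members, Gm10413, 2610042L04Rik, 4930555G01Rik and Gm3696, were lower by 2.39 to 2.94 in C57BL/6J. Gm10413 read -2.16, -1.68, -1.93, -1.45 and -1.10 in C57BL/6J and 0.58, 1.32, 0.81, 1.19 and 1.86 in 129S1/SvImJ. Gm3696 read -1.24, -0.81, -0.95, -1.23 and -0.56 in C57BL/6J and 1.25, 1.45, 1.22, 1.41 and 1.83 in 129S1/SvImJ. No C57BL/6J array reached any 129S1/SvImJ array for either. The differences were -2.82 ± 0.25 (adjusted p = 8.4e-05) and -2.39 ± 0.16 (adjusted p = 8.6e-06), and all 5 probes of Gm10413 and all 3 of 2610042L04Rik were called lower. These genes belong to a repeated family, so their probes can read more than 1 locus. Beyond them Rpp14 was higher as given above, and Pxk, a kinase-like protein, was higher by 0.88 ± 0.12 (1.84-fold, adjusted p = 0.0013). 6 or 7 of the 7 genes stayed called whichever array was left out. Runs of at least 25 bases shared with a probe of another gene were found in 279 of 34883 tested probes (0.8%) and in 20 of the 1313 called ones. The probes of Gm3696 and 4930555G01Rik share 27 bases. A probe of Gm10413 that read -3.31 ± 0.31 shares 26 bases with the probe NAP028748-1, which read 1.53 ± 0.35 (adjusted p = 0.032). They are shown as 30 bases of each probe, as the file gives its strand, with the shared run in capitals, because pairs with shared letters moved alike in the first case and apart in the second.
Gm3696: gtcGTCATCATCAATAATTACATGGAGATC
4930555G01Rik: ttgGTCATCATCAATAATTACATGGAGATC
Gm10413: aactACAGAATGAACACTGAATTCAACATC
NAP028748-1: cacACAGAATGAACACTGAATTCAACATCa

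The block on chromosome 4 was a cluster of zinc finger genes with 6 called. Znf41-ps, Zfp987, Rex2, Zfp982 and Zfp985 were lower in C57BL/6J and Zfp933 higher. Zfp982 read -0.069, -0.69, 0.02, -0.36 and -0.081 in C57BL/6J and 2.13, 1.27, 1.34, 1.51 and 1.25 in 129S1/SvImJ. Zfp933 read 0.75, 1.14, 0.39, 0.13 and 1.23 in C57BL/6J and -0.56, -0.35, -0.22, -0.66 and -0.31 in 129S1/SvImJ. The strains were separated for Zfp982, at -1.74 ± 0.19 (adjusted p = 0.00036), and Zfp933 moved the other way by 1.15 ± 0.21 (2.22-fold, adjusted p = 0.0091). The other members gave -0.85 for Znf41-ps, -1.17 for Zfp987, -1.28 for Rex2 and -0.83 for Zfp985, and the calls of Znf41-ps, Rex2 and Zfp985 ended with the letter block. The probes of Zfp985 and Znf41-ps share 54 of their 60 bases and those of Zfp985 and Rex2 share 29, and whether these probes read each other's RNA was not tested. Part of each run is shown in capitals because those letters are common to probes of different members. 5 or 6 of the 6 genes stayed called with any 1 array left out, and the call of Rex2 ended for Rex2 without any 1 of H2, A4 and D4 (adjusted p = 0.055 to 0.058).
Znf41-ps: cagGAGAGAACCCTTACAAATGCAGTGAAT
Zfp985: GAGAGAACCCTTACAAATGCAGTGAATGTG
Rex2: tatAAATGCAGTGAATGTGACAAATGCTTT

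On chromosome 13, Nnt was lower and its neighbours 4833420G17Rik, 3110070M22Rik, Tmem267 and Hmgcs1 were higher in C57BL/6J. All 5 stayed called with any 1 array left out. Tmem267 read -1.27, -0.68, -1.04, -1.44 and -1.14 in C57BL/6J and -2.43, -2.27, -2.09, -2.57 and -2.13 in 129S1/SvImJ. Tmem267, which codes for a transmembrane protein, differed by 1.18 ± 0.15 (2.27-fold, adjusted p = 0.00095), and the clone genes beside it by 1.18 and 2.10. With normexp correction 3 of the 5 stayed called, and Tmem267 then had an adjusted p of 0.20. Hmgcs1, counted above among the cholesterol genes, is the last gene of this block.

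On chromosome 18, Esco1, Abhd3, Rbbp8 and Cables1 were higher in C57BL/6J and Riok3 was lower. Abhd3 read 1.61, 2.47, 2.26, 2.59 and 2.74 in C57BL/6J and 0.63, 0.70, 0.91, 0.45 and 0.89 in 129S1/SvImJ. Rbbp8 read 0.89, 1.02, 1.14, 0.67 and 1.17 in C57BL/6J and 0.031, -0.29, -0.43, -0.29 and -0.21 in 129S1/SvImJ. Rbbp8 encodes CtIP, which starts the resection of broken DNA ends, and Abhd3 a phospholipase. Their strains did not overlap, with differences of 1.62 ± 0.20 (3.07-fold, adjusted p = 0.00067) and 1.22 ± 0.13 (2.33-fold, adjusted p = 0.00022). Esco1, which acetylates cohesin, was higher by 1.33 ± 0.19 (2.51-fold, adjusted p = 0.0021). Cables1, which links cyclin-dependent kinases, and Riok3, an atypical kinase, gave 0.72 and -0.49, with their calls ended for Cables1 without any 1 of H1, H2, H4, K2, A3, A6 and D4 (adjusted p = 0.054 to 0.078) and for Riok3 without any 1 of H1, H2, H3, K2, A3, A6, D4 and G3 (adjusted p = 0.069 to 0.093). Gata6, which lies between the called members, was not called at 0.27.

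On chromosome 3 Gbp2b, Gbp2, Kyat3 and a clone gene were lower, and 1 to 4 of the 4 stayed called when an array was left out. Kyat3, a transaminase, differed by -1.38 ± 0.33 (adjusted p = 0.041), with the call ended for Kyat3 without any 1 of H1, H2, H3, H4, K2, A3 and G3 (adjusted p = 0.057 to 0.093). On chromosome 6 Stk31, a kinase gene of germ cells, and Npy, the neuropeptide Y gene, were lower at -1.43 ± 0.32 (adjusted p = 0.031) and -0.96 ± 0.20 (adjusted p = 0.02), and Gsdme and Osbpl3 higher by 0.61 ± 0.14 (1.53-fold, adjusted p = 0.04) and 0.57 ± 0.14 (1.49-fold, adjusted p = 0.046). These calls ended for Stk31 without any 1 of H2, K2, A3, A4, A6 and D4 (adjusted p = 0.06 to 0.079), Npy without either H2 or H3 (adjusted p = 0.051 to 0.054), Gsdme without any 1 of H1, H2, H3, H4, K2, A4, A6, D4 and G3 (adjusted p = 0.057 to 0.1) and Osbpl3 without any 1 of H1, H2, H3, A3, A4, A6 and D4 (adjusted p = 0.07 to 0.11), and 0 to 3 of the 4 stayed called in such fits. For Stk31 the adjusted p was 0.36 with normexp and 0.69 in the authors' table of log2 ratios.

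**Figure D4:**
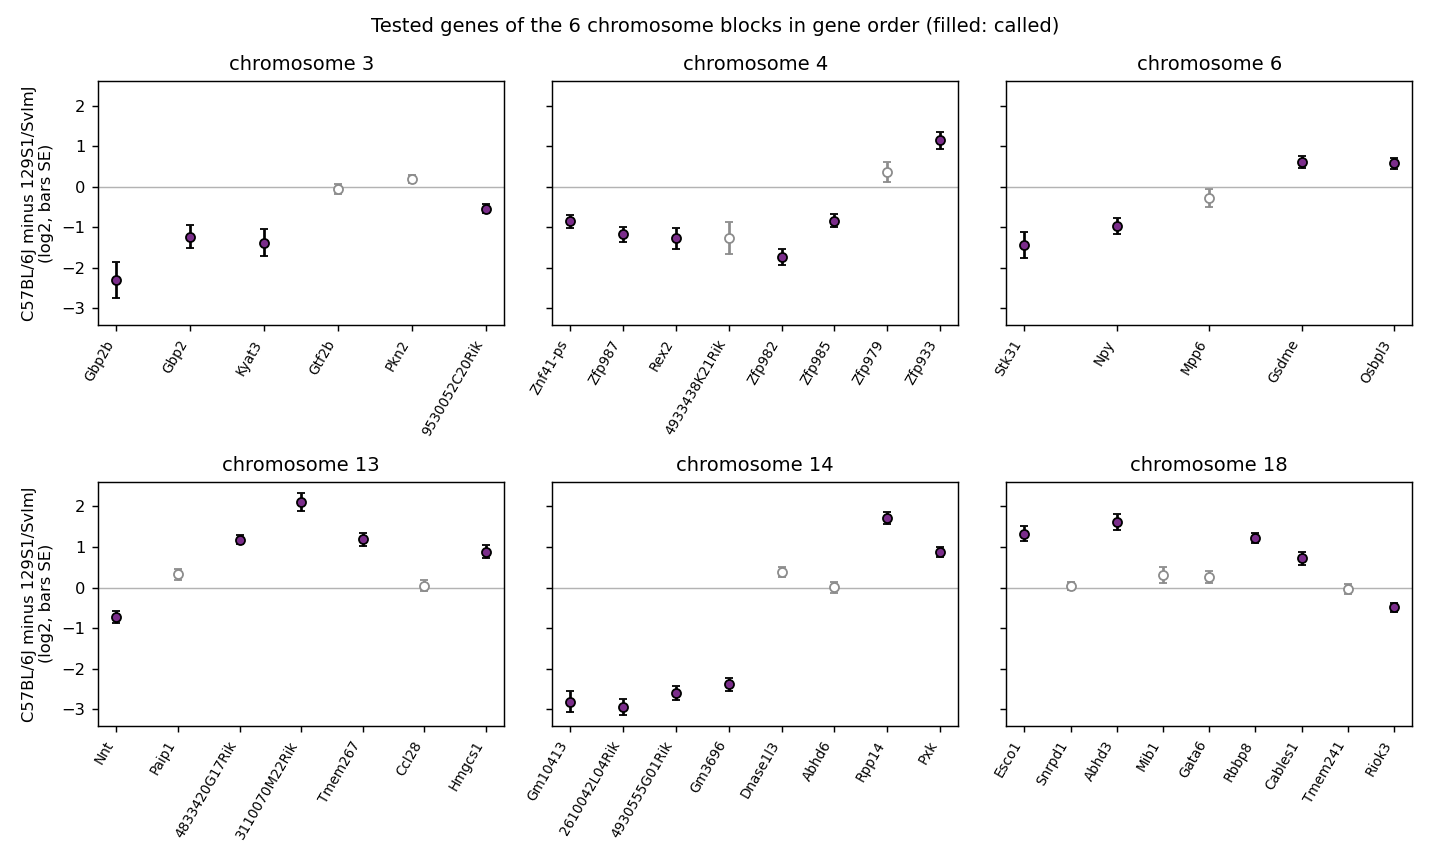
Log2 difference between C57BL/6J and 129S1/SvImJ with its SE for the tested genes of the 6 blocks, all but 1,, in gene order (spacing is not to scale), with called genes filled. 5 of the 6 blocks hold called genes on both sides of 0, and the first 4 genes on chromosome 14 lie below -2.

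Several genes were called by 3 or more probes in 1 direction. Pla2g4b read -0.0095, 0.0069, 0.056, 0.015 and -0.18 in C57BL/6J and -1.59, -2.02, -1.78, -1.91 and -1.64 in 129S1/SvImJ. Pla2g4b, a cytosolic phospholipase A2, was higher by 1.77 ± 0.11 (3.4-fold, adjusted p = 4.5e-06), with 2 more probes at 1.46 to 1.51. Myo6 read 0.36, 0.68, 0.46, 0.98 and 0.62 in C57BL/6J and 2.30, 3.06, 2.69, 2.55 and 3.096 in 129S1/SvImJ. Myo6, the myosin that walks towards the minus end of actin, was lower at -2.12 ± 0.17 (adjusted p = 4.1e-05) (other probes -2.28 to -1.21). Masp2 read -1.38, -1.29, -1.27, -1.24 and -1.24 in C57BL/6J and 0.46, 0.048, 0.077, 0.53 and -0.074 in 129S1/SvImJ. Masp2, a protease of the lectin pathway of complement, was lower at -1.49 ± 0.13 (adjusted p = 5.6e-05) (other probes -2.56 to -0.78). Ift57, of the ciliary transport complex, was lower at -0.83 ± 0.12 (adjusted p = 0.0018), and Dctn5, a dynactin subunit, higher by 0.82 ± 0.16 (1.76-fold, adjusted p = 0.014), which the letter block took to an adjusted p of 0.067. Gsr, Lpin1, Trim16, H2-Bl, Riok3, Gm10413 and 2610042L04Rik, given above, make up the rest of these 12 genes.

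Over the autosomes and the X, the share of tested genes called ran from 1.44% on the X (9 of 627) to 6.44% on chromosome 13 (30 higher and 13 lower of 668), with 3.8% over the autosomes. Chromosomes 8, 18 and 14 followed at 5.82%, 5.21% and 4.98%. On the Y, 1 of 16 tested genes was called (6.25%), Uba1y at -1.13 ± 0.24 (adjusted p = 0.022). On chromosome 6, 26 genes were higher and 5 lower in C57BL/6J, on chromosome 7, 45 and 12, and on chromosome 3, 13 and 20.

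**Figure D5:**
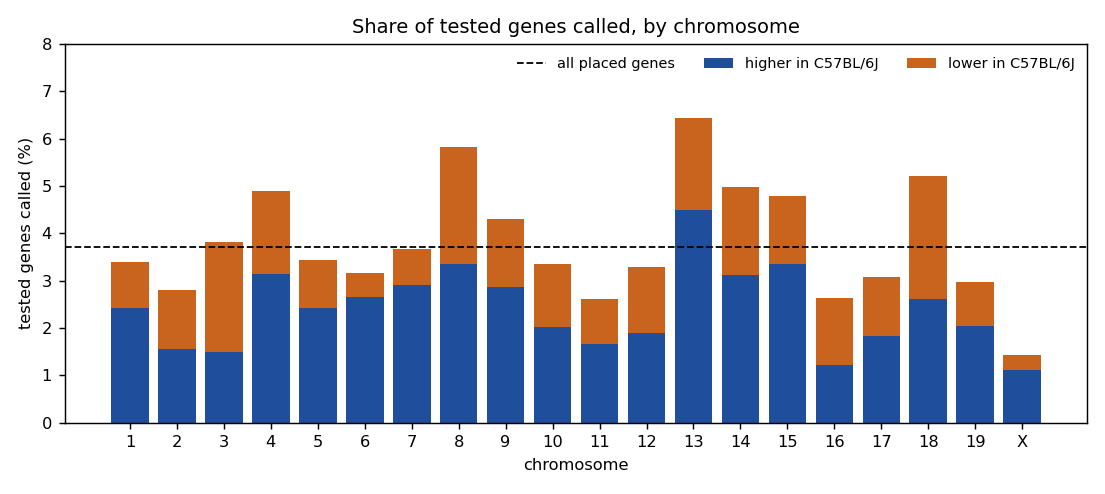
Percent of tested genes called on each autosome and the X, stacked by direction (blue higher and orange lower in C57BL/6J), with the share over all placed genes, 3.72%, as a dashed line. Chromosome 13 has the highest bar at 6.44% and the X the lowest at 1.44%.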

How the data were processed

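RNA of 10 single XY gonad pairs (5 C57BL/6J, 5 129S1/SvImJ) was read on Agilent arrays with 2 colours. Per the file headers, the deposited scanner files came from Feature Extraction 9.1.3.1 and hold, per spot, a processed intensity for each channel, which is background-subtracted and dye-normalised. The authors also deposited a table of log2 ratios, used as an alternative only, whose columns correlated with the scanner ratios at r = 0.939 to 0.959 with slopes of 1.02 to 1.03, so that its scale is log2 and its direction gonad over reference. The methods behind that table are not given in the sources used here.

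The log2 ratio of processed Cy5 over Cy3 was taken per spot, outlier-flagged spots were set to missing, and spots of a probe were averaged (45018 spots, 41174 gene probes). A probe was tested if Cy5 was well above background on at least 4 of 5 arrays of at least 1 strain. Differences were fitted over the 10 arrays with lmFit and eBayes in R 4.3.3 by limma 3.58.1 (3.09 prior degrees of freedom beside 8 residual ones), with Benjamini-Hochberg adjustment over all tested probes. The fit was tested on simulated data. P-values measure the spread between single gonad pairs, and 5 arrays per strain limit how precise they can be. A gene was read by its brightest tested probe. Probes were named through accession (22951), symbol (6659), synonym (3109) or the file's name only (8455), with the RefSeq gene table of GRCm38.p6. The build behind the array's own positions is not given in the sources used here, so coordinates are printed only for promoter windows, from RefSeq's table.

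The 112 gene lists (58 families, 35 pathways, 15 cell types, 4 checks), the members and the tests were chosen with earlier results of these data known, so lists are described by counts and medians only. Named genes are called members of the lists, at most 8 per list by smallest p, members of blocks with a current symbol, genes with 3 or more probes all called 1 way, and the checks, with a few uncalled genes of known role. Some genes are not reported here. The arrays lay on 4 slides, each with both strains, scanned on 3 days, and slide was tried as a block and separately. Other alternatives were normexp and loess, the deposited table, all 20 arrays, other filters, scaling, flagged spots kept, the letter of the sample name as a random block, each array left out, and, chosen after seeing the data, H1 and H4 left out together.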

Additional observations from a re-analysis of the deposited data

Results flagged for a closer look

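An array was set aside for a closer look where it lay far from the 4 others of its strain, by Dixon's ratio of its gap to the whole range above 0.71. Of 316 groups of 5 arrays looked at, 28 (8.86%) met this, where chance flags about 1 in 20. H4 accounts for 10 of them, K2 for 6, H1 for 5, G3 for 3, A6 for 2, and A4 and H3 for 1 each.

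The array medians of lists that met it were 2.47 in H4 for the interferon-stimulated genes (0.43 to 0.59 in the other C57BL/6J arrays), 1.92 in H1 for the hepatocyte and visceral endoderm markers (-2.37 to -1.79) and 1.67 in K2 for the Sertoli cell and male pathway (0.78 to 0.86). Among single interferon genes H4 was the high array for Oasl2 (5.89), Usp18 (4.50), Isg15 (4.95), Oas2 (5.58), Irf7 (3.62), Parp14 (4.51) and Irgm2 (4.17). H3 was the low C57BL/6J array for Apobec3 (-0.33), A4 the low 129S1/SvImJ array for Isg20 (-0.41) and G3 that for Irf7 (-0.084).

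H4 was also the low array for Dmc1 (0.72) and Sdhb (-0.86). H1 was the low array for Cdkn1b (-0.0017) and the high array for Zfp69 (-0.37), Apoe (2.02) and Slc7a8 (1.68). K2 was the low array for Sfrp1 (-2.42), Kctd14 (5.32), Cox6b2 (-0.029) and Pla2g4b (-0.18) and the high array for Osbpl3 (1.52). In 129S1/SvImJ, A6 was low for Sp5 (0.54) and high for Wnt10a (-1.21), and G3 was high for Nnt (0.95) and Serpinb9 (1.64). The causes were not tested.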

How the results depend on the processing

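No call of a gene picked by the naming rule changed direction in any alternative fit over both strains, while within single slides Gsr gave -0.20 in slide 4 and 864 of all 876 called genes kept 1 sign in the 4 slides. The hepatocyte and visceral endoderm list, with no call, went from a median of 0.83 to -0.019 without H1. The count of 1313 called probes fell to 856 with normexp and loess and to 727 with the sample name letter as a random block (correlation 0.20), and leaving out 1 array gave 942 to 1318. Called genes fell from 876 to 480 with the letter block and to 583 without H1 and H4, and the median size over the genes called at first fell from 0.93 to 0.69 with normexp. The 6 blocks became 3 with normexp, 22 with all 20 arrays, 12 with slide as a block, 2 with the letter block, 3 without H1 and H4, and 16 when 3 called genes with at most 2 between sufficed. Leaving out 1 array gave 3 to 9. The causes were not tested, beyond the smaller number of arrays where some were left out. List medians that moved by more than their spread between arrays were 2.40 for the interferon-stimulated genes within slide 4, 0.15, 0.41 and 0.44 for the WNT targets within slides 2, 3 and 4, 0.72 for the female pathway within slide 2 and 0.084 for cholesterol within slide 4. The sample names give the strains no shared replicate numbers, and slide, which held both strains, served as the block (1637 called probes). Of 131 called genes picked by the naming rule, 67 stayed called in every alternative with all strain arrays that tested them and in every leave-one-out fit. Without H1 and H4 together as well, 63 stayed called. In at least 1 alternative 64 lost the call, and 45 lost it in at least 1 leave-one-out fit. By setting, 50 calls ended with the letter block, 39 with normexp, 19 with scaled arrays, 15 with no filter on dim probes, 7 each with slide as a block and the deposited table, 4 with all 20 arrays and 40 without H1 and H4. Some named genes without a call gained one in alternatives with all strain arrays. These were Bst2 in 3 fits, Usp18, Axin2 and Apoe in 2 each, and Oas2 and Irgm2 in 1 each. List medians close to 0 have no settled sign, as for the Sertoli cell and male pathway, 0.034 in all and -0.037 without G3. Probes not well above background limit the values of Sycp3, Slc7a2, Trim12a, Ifi202b and Sry. The probes of Oasl2, Gbp2b, Akr1c18, Stk31, Serpina1f and Serpinb9 also missed the filter of both channels well above background on all 10 arrays.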
